A study of Mus musculus with 35 samples.

Results

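Fractalkine, its receptor and its sheddases are encoded by Cx3cl1, Cx3cr1, Adam10 and Adam17, which are 4 of the 25655 genes measured in mouse retina. The products are the fractalkine receptor, fractalkine itself and the 2 metalloproteases best known for cutting fractalkine from the cell surface. They were chosen by name, and all 4 were found, once each, in all 8 of the authors' comparison tables, with a fold change and a p-value in every table.

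The samples were 35 whole-retina RNA-seq libraries from wild-type mice in 7 groups. Of the diabetic groups, D6 had 5 libraries taken at 6 weeks of diabetes, before any depletion of microglia. D8 depleted had 4 libraries taken at 8 weeks of diabetes after 2 weeks of depletion, and D8 had 5 libraries at 8 weeks of diabetes with PBS. D10 repopulated had 5 libraries taken at 10 weeks of diabetes after 2 weeks of depletion and 2 weeks of recovery, and D10 had 5 libraries at 10 weeks of diabetes with PBS. ND repopulated had 5 libraries from non-diabetic mice given the same 2 weeks of depletion and 2 weeks of recovery, and ND had 6 libraries from untreated non-diabetic mice. The study's text names the CSF1 receptor inhibitor PLX-5622 as the depleting agent, whereas the sample labels write DTx, so the agent is called depletion here. Only the D8 and D10 labels mention PBS, and the titles of the D8 and D10 libraries come from 1 range of numbers and those of the other 5 groups from another. Neither age, nor the way diabetes was induced, nor whether each library came from a separate mouse is stated by the labels, so that p-values measure the spread between these libraries, which may be technical.

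Fractalkine is an unusual chemokine, made as a membrane-bound protein that carries its chemokine head on a long mucin stalk. In the retina and brain it is made mainly by neurons, and in inflamed vessels also by endothelium. CX3CR1, its receptor, couples to inhibitory G proteins and in these tissues marks microglia, the resident macrophages, as well as monocytes and border macrophages. ADAM10 cuts fractalkine constitutively and ADAM17, also known as TNF-converting enzyme, cuts it after stimulation, which releases a soluble form. Signalling through the receptor is known to restrain microglial activation, and mice that lack the receptor show stronger neurotoxic microglial responses.

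The files place Cx3cr1 (ENSMUSG00000052336) on the minus strand of GRCm39 chr9:119730682-119898945, Cx3cl1 (ENSMUSG00000031778) on the plus strand of chr8:95498637-95509055, Adam10 (ENSMUSG00000054693) on the plus strand of chr9:70586279-70687511 and Adam17 (ENSMUSG00000052593) on the minus strand of chr12:21373510-21423633. The 168264-base span given for Cx3cr1 holds or touches 5 other genes, of which Gorasp1, Csrnp1 and Xirp1 lie on its own strand. In the GENCODE M21 annotation of GRCm38 that span comes from 1 of 3 Cx3cr1 transcripts, and 0 exons of Cx3cr1 overlap an exon of these genes. None of the 5 was called in D8 depleted against D8, where their log2 values in the authors' deposited table were -0.08 for Wdr48, -0.20 for Gorasp1, -0.63 for Ttc21a, -0.65 for Csrnp1 and -0.41 for Xirp1. In that comparison none of them came near the change of Cx3cr1 described next. Xirp1 had -1.97 in D10 repopulated against ND and -2.44 in D10 repopulated against D10 in the authors' deposited tables, about the size of the Cx3cr1 values there, and neither was called (SE 1.32 and 1.33). Its larger group mean was 0.00552 in the first of these tables and 0.00845 in the second. The part of Xirp1 reads in those Cx3cr1 values was not tested.

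The 250 bases before the RefSeq start sites of the receptor and of the ligand are shown because these are the members whose RNA changed and because their starts differ in base composition. They were read from the RefSeq promoter table of GRCm38.p6, on the strand of the gene, with each CG dinucleotide in capitals. GENCODE M21 gives both genes further starts, so these windows stand for 1 start each.
Cx3cr1, chr9:120068297-120068546, minus strand: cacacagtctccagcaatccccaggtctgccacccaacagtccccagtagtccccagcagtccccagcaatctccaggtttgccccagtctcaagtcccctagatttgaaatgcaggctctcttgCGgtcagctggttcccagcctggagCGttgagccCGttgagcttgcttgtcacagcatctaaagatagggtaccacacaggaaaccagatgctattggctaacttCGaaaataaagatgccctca
Cx3cl1, chr8:94771930-94772179, plus strand: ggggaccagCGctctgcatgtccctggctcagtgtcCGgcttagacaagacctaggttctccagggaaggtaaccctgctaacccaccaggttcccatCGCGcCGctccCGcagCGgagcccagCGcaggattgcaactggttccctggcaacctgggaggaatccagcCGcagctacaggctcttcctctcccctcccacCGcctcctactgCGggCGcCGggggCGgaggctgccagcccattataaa
The Cx3cr1 stretch had 53.6% G and C and 4 CG dinucleotides, and 37.8% of 32851 RefSeq promoters of this length had fewer. The Cx3cl1 stretch had 64.8% G and C and 14 CG dinucleotides, more than 70.6% of promoters, and ended in the letters TATAAA, which 12.4% of promoters held on either strand. The matching stretch of Adam10 had 74% G and C with 29 CG dinucleotides and that of Adam17 70.4% with 23, more than 93.2% and 86.7% of promoters. The sheddases thus had the CG-rich starts and the receptor the CG-poor one, against a median of 6 CG dinucleotides over all promoters. These are descriptions of sequence only.

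Each deposited table compared 2 groups. Per gene it gave the larger of the 2 group means, the log2 fold change with its p-value, and a false discovery rate (FDR). A gene is called here when its FDR over all genes was under 0.05, and the standard error (SE) beside a log2 value is the one that the deposited p implies. The files hold no value per library, and neither the depth per library nor the unit of the means is known, so levels are compared within a gene only. The share of all tested genes called higher was 14.1% in D6 against ND, and 9.31% were called lower. The shares were 2.33% higher and 0.583% lower in D8 against ND, and 5.59% and 1.41% in D10 against ND. They were 15.5% and 13% in D8 depleted against ND, 7.49% and 4.19% in D10 repopulated against ND, and 0.0844% and 0.0714% in ND repopulated against ND. Between groups of the same diabetic age they were 5.85% and 4.90% in D8 depleted against D8, and 0.178% and 0.267% in D10 repopulated against D10. The median log2 of all tested genes lay between -0.0032 and 0.0394 in the 8 tables.

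Set against those shares, 2 of the 4 members were called lower in D8 depleted against ND and the same 2, Cx3cr1 and Cx3cl1, in D8 depleted against D8. Cx3cl1 was the 1 member called lower in D6 against ND. Cx3cr1 was the 1 member called lower in D10 repopulated against ND and in D10 repopulated against D10. None of the 4 was called, or had an unadjusted p under 0.05, in D8 against ND, D10 against ND or ND repopulated against ND by the authors' test. No member was called higher in any of the 8 tables.

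Cx3cr1, the receptor, fell to almost nothing on depletion and came back only in part by the end of recovery in diabetic retina. Its log2 value in the authors' deposited table was -6.98 (SE 0.85) in D8 depleted against D8, with an FDR of 3.04e-13, which places D8 depleted retinas at 0.792% of D8. Against ND the authors' deposited table gave -6.91 (SE 0.84) for D8 depleted, with an FDR of 1.256e-13. The level behind these values is close to 0, so the fold rests on the authors' model and is not a bound on the loss. In bulk tissue, fewer cells of a type and less RNA per cell cannot be told apart.

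After recovery the receptor stood at 25.7% of D10 in D10 repopulated retinas (95% interval 16.7% to 39.5%). The authors' deposited table gave a log2 of -1.96 (SE 0.32) for D10 repopulated against D10, with an FDR of 5.9e-06, and -2.06 (SE 0.33) for D10 repopulated against ND, with an FDR of 6.945e-08. D10 libraries come from the other range of library numbers than D10 repopulated libraries and D10 alone of the pair carries PBS, whereas ND libraries share the range of D10 repopulated ones. The part of library range and of PBS in these values was not tested. Computed through ND in place of the direct table, the log2 of D10 repopulated against D10 was -1.93 with an adjusted p of 0.135, since that route adds the error of ND. Computed from the authors' deposited tables through ND, D10 repopulated was 4.85 (SE 0.91) higher on the log2 scale than D8 depleted, with a Benjamini-Hochberg adjusted p of 0.000138 over all genes, where 1.02% of genes passed in either direction. Without ND, the repopulation effect at 10 weeks minus the depletion effect at 8 weeks was 5.02 (SE 0.90) for the receptor, with an adjusted p of 4.75e-05, in a test that 0.654% of genes passed.

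Non-diabetic retina did not show this deficit after the same recovery time. The authors' deposited table gave 0.16 (SE 0.31) for Cx3cr1 in ND repopulated against ND, with an FDR of 1.00 and a 95% interval of -0.46 to 0.78. The difference between the 2 repopulation effects, diabetic minus non-diabetic, was -2.12 (SE 0.45), with an adjusted p of 0.00273 in a normal test of 2 comparisons that share no libraries. In that test 29 of 15400 genes passed, or 0.188%. Repopulated diabetic retina was also lower than repopulated non-diabetic retina, with a log2 of -2.22 (SE 0.46) and an adjusted p of 0.000203 for D10 repopulated against ND repopulated through ND, where 3.32% of genes passed. A non-diabetic group at the depleted stage is not analysed here, so how far the receptor had fallen in non-diabetic mice is not known from these values.

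Diabetes without depletion gave no called change of the receptor. For D6 against ND the authors' deposited table gave -0.78 (SE 0.32), with an unadjusted p of 0.0145 and an FDR of 0.0584, so that it was not called. The values were 0.07 (SE 0.31) for D8 and -0.13 (SE 0.32) for D10 against ND in the authors' deposited tables. Their 95% intervals, -0.55 to 0.68 and -0.75 to 0.49, leave room for changes of moderate size. The authors' deposited means, whose unit is not stated, were 0.761 in D8, 0.656 in D10, 0.793 in ND repopulated and 0.713 in ND.

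**Figure D1:**
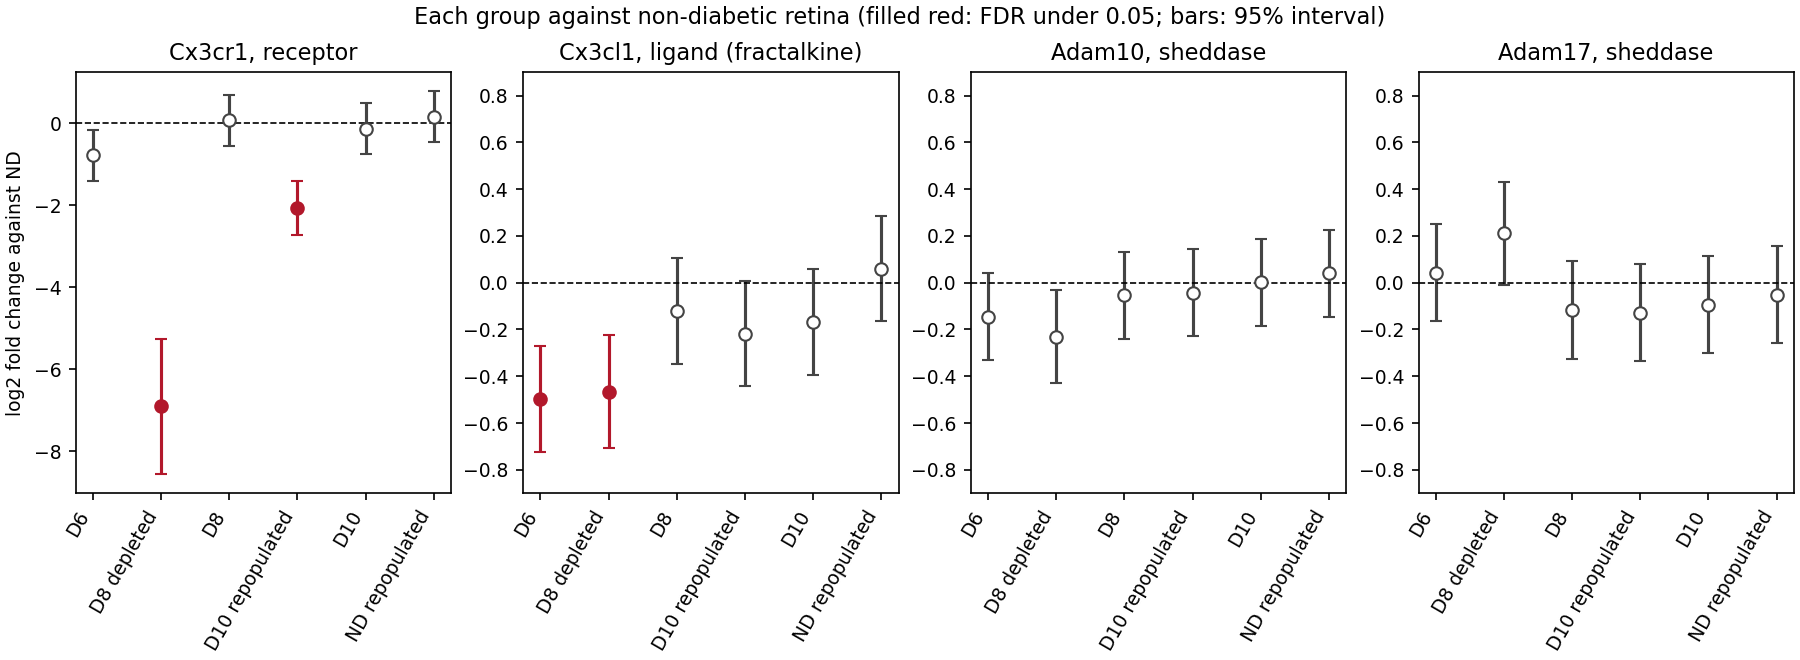
Log2 fold change against ND of each member (1 panel each) in 6 groups on the x axis. Points are the authors' deposited values, bars are 95% intervals implied by the deposited p, filled red points have an FDR under 0.05, and the y axis of the receptor is wider than those of the other 3 genes. The receptor lies at -6.91 in D8 depleted and at -2.06 in D10 repopulated, the ligand lies lowest in D6 and D8 depleted, and every interval of the sheddases but that of Adam10 in D8 depleted includes 0.

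Ordered by level, Cx3cr1 ran from ND repopulated through D8, ND, D10, D6 and D10 repopulated down to D8 depleted. Of the 6 steps between neighbours, the last alone was called, that between D10 repopulated and D8 depleted. The step between D10 repopulated and D6 was 1.28 on the log2 scale (SE 0.46), with an adjusted p of 0.999. D8 depleted was also below D6, the group taken before depletion began, with a log2 of -6.13 (SE 0.90) and an adjusted p of 2.22e-08, in a comparison through ND where 0.302% of genes passed.

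The receptor stood among the most reduced of 25 microglia genes at both stages. In D8 depleted against D8, 20 of the 25 fell, with a median log2 of -3.23 against 0.0016 for all genes tested, and 0 rose. Ly86, which encodes the partner of a Toll-like receptor relative, had the lowest value, -8.36 in the authors' deposited table, and Cx3cr1 came next. The authors' deposited table gave -6.97 for C1qb and -6.92 for C1qa, which encode chains of complement C1q, -3.15 for Csf1r, the receptor that microglia need to survive, and -1.97 for P2ry12, an ADP receptor of resting microglia.

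In D10 repopulated against D10, 5 of the 25 were called lower and 0 higher, with a median log2 of -0.86, and 17 had an unadjusted p under 0.05. Cx3cr1 had the lowest value of the list. The authors' deposited table gave -1.34 for C1qa, -1.12 for C1qb, -1.12 for C1qc and -1.28 for Itgam, the integrin chain CD11b. P2ry13, another ADP receptor, had -1.92 (SE 0.54) with an FDR of 0.0695 in the authors' deposited table and was not called. Against ND, C1qa, C1qb, C1qc and Itgam had -0.35, -0.08, -0.27 and 0.70 in D10 repopulated in the authors' deposited table. None of these was called there, whereas Cx3cr1 was called at -2.06. The receptor was not alone, since 11 of the 25 were called lower there, beside 4.19% of all genes. P2ry13 had the lowest value of the list against ND, -2.46, and was called, and Cx3cr1 had rank 3. In D10 against ND, 6 of the 25 were called higher and 3 lower.

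After recovery the genes of the list stood at different levels relative to D10, and whether their recovery differed was not tested. Leaving out the receptor, the other 19 genes that fell on depletion had a median log2 of -0.94 in D10 repopulated against D10, or 52.2% of the D10 level. They ranged from -1.92 to 2.01. Fcrls, a microglial Fc receptor-like gene, had 2.01, Gpr34, a lysophospholipid receptor, had 1.13 and P2ry12 had 0.20 in the authors' deposited table, and none of these 3 was called. Fcrls, Gpr34 and P2ry12 were also the genes that stood lower in D10 than in ND, at -2.19, -2.97 and -1.80 in the authors' deposited table, all called. In D10 repopulated against ND, Gpr34 at -1.84 and P2ry12 at -1.59 were still called lower, and Fcrls at -0.17 was not called. Computed through ND, Fcrls was called higher in D10 repopulated than in D8 depleted, and Gpr34 and P2ry12 were not called.

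In ND repopulated against ND, 0 of the 25 were called by the authors' test, 0 had an unadjusted p under 0.05, and the 19 had a median log2 of 0.13 (range -0.19 to 0.41). The difference of the repopulation effects, diabetic minus non-diabetic, was called for Cx3cr1, for C1qa at -1.34 (SE 0.30, adjusted p 0.00818) and for C1qb at -1.31 (SE 0.31, adjusted p 0.0136). Against ND, 11 of the 20 genes that fell on depletion were still called lower in D10 repopulated, beside 4.19% of all genes. Through ND, 11 of the 20 were called higher in D10 repopulated than in D8 depleted, where 1.02% of all genes passed in either direction. The 20 were chosen for low values in the same D8 depleted libraries. That choice favours higher values in D10 repopulated, so the second count is no test of a return. The receptor was in all of these counts.

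**Figure D2:**
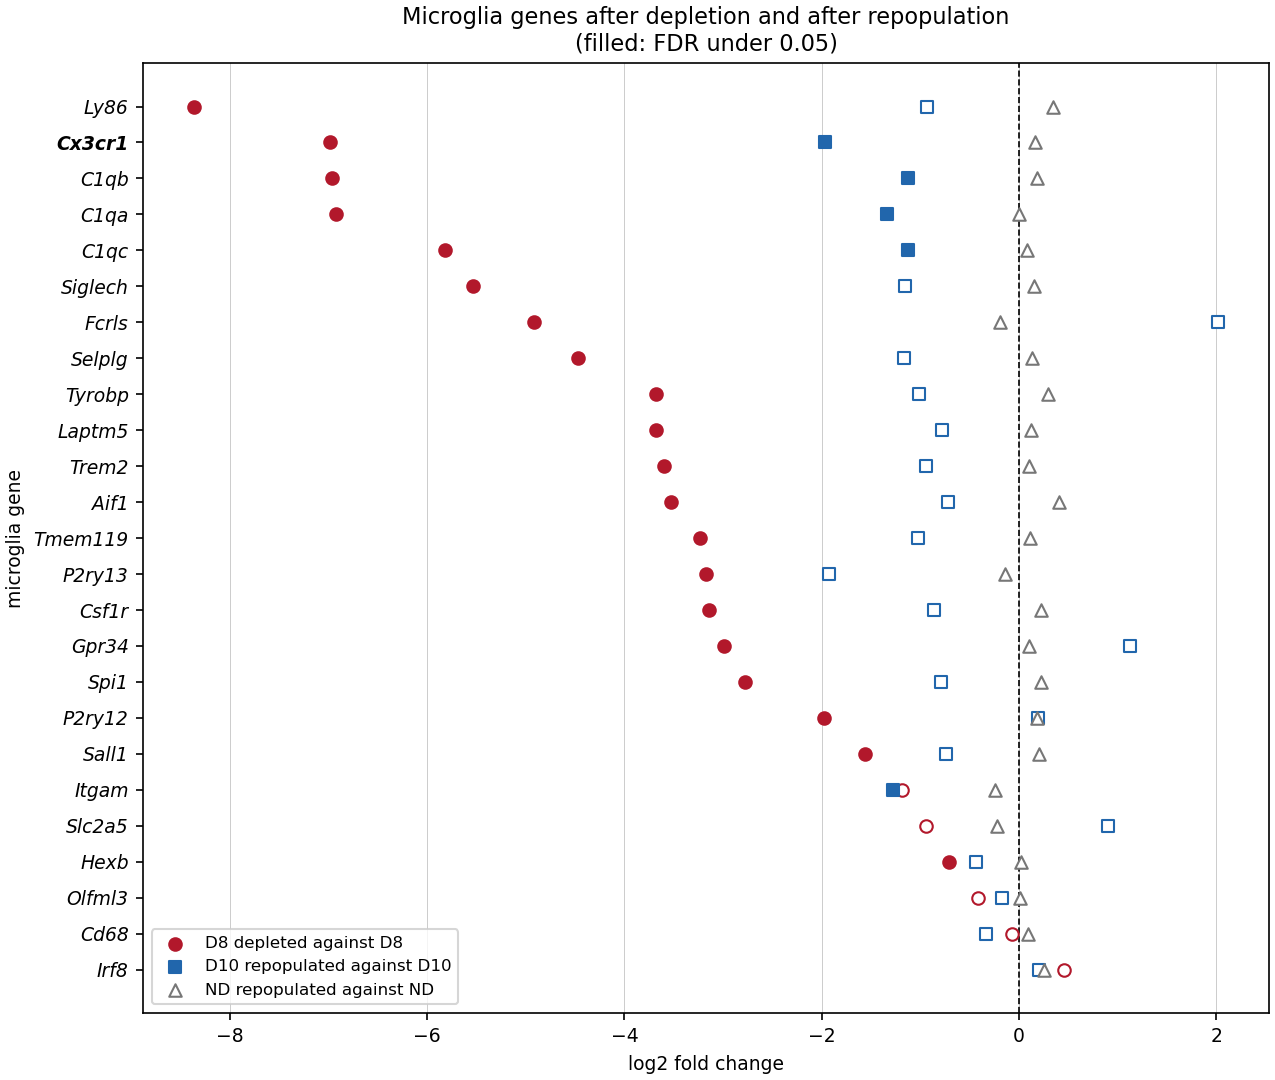
Log2 fold change (x axis) of 25 microglia genes (rows, lowest after depletion at the top). Red circles are D8 depleted against D8, blue squares D10 repopulated against D10 and grey triangles ND repopulated against ND, filled where the FDR was under 0.05. Cx3cr1 is second from the top at -6.98 and has the lowest blue square, -1.96, while the grey triangles lie between -0.24 and 0.41.

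Border macrophages and monocytes were followed by lists of markers, and the monocyte list also held neutrophil genes. Of 7 border macrophage genes, F13a1 at -5.89 and Mrc1, the mannose receptor CD206, at -3.09 were called lower in D8 depleted against D8 in the authors' deposited table. Of 9 tested monocyte and neutrophil genes in that comparison, Plac8 at 2.15 and S100a9 at 2.04 rose while Lyz2 at -2.00 and Ms4a4c at -3.31 fell in the authors' deposited table. Ccr2, the receptor that marks inflammatory monocytes, was near 0 in D8 depleted and in D8, with a larger group mean of 0.0027 in the authors' deposited table and no FDR. In D10 repopulated against D10, 0 of 9 monocyte and neutrophil genes and 0 of 7 border macrophage genes were called, with 0 and 2 at an unadjusted p under 0.05. Against ND, 6 of 10 monocyte and neutrophil genes were called higher in D10 repopulated, with a median of 1.88, and 7 of 10 in D10, with a median of 1.81, while 0 of 7 border macrophage genes were called in either, with 1 and 1 at an unadjusted p under 0.05. The part of these cells in the receptor's level was not tested.

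Downstream of the receptor, 15 genes of the G protein and kinase cascade were read. In D8 depleted against ND 7 of 15 were called lower and 0 higher. Vav1, an exchange factor of blood-derived cells, fell by 2.67 on the log2 scale in the authors' deposited table. The inhibitory G alpha genes Gnai1, Gnai2 and Gnai3 had -0.61, -0.40 and -0.49 in the authors' deposited table, and Gnb1, Gng2 and the arrestin gene Arrb1 had -0.51, -0.37 and -0.30. In D8 depleted against D8, Vav1 at -3.26 and Gnai1 at -0.51 remained the 2 called in the authors' deposited table. There 4.90% of all genes were called lower. Rac2, a small GTPase of white blood cells, went the other way with diabetes, at 1.71 in D6, 1.87 in D8, 2.00 in D10 repopulated and 2.01 in D10 against ND in the authors' deposited tables, all called. It was not called in D8 depleted against ND, where the largest value of the 15 was 1.17. None of the 15 was called in D10 repopulated against D10, with 1 at an unadjusted p under 0.05.

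Cx3cl1, the ligand, changed little beside its receptor and never rose. It was lower in D6 than in ND, at -0.50 (SE 0.12) with an FDR of 0.000337 in the authors' deposited table, or 70.8% of ND. In D8 depleted it stood at -0.47 (SE 0.12) against ND with an FDR of 0.0014, and at -0.35 (SE 0.12) against D8 with an FDR of 0.0448, in the authors' deposited tables. Against D8 the ligand was thus at 78.2% (95% interval 66.1% to 92.7%), close to the threshold of the test. Computed through ND the value was also -0.35, with an adjusted p of 0.352.

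The ligand was not called in the other 5 tables. Against ND the authors' deposited tables gave -0.12 (SE 0.12) in D8, -0.17 (SE 0.12) in D10, -0.22 (SE 0.12) in D10 repopulated and 0.06 (SE 0.12) in ND repopulated. After recovery D10 repopulated and D10 differed by -0.05 (SE 0.08) in the authors' deposited table, with a 95% interval of -0.21 to 0.10. The receptor deficit of repopulated diabetic retina was thus not accompanied by a called change of the ligand against D10 or ND. Against ND repopulated the ligand had -0.28 (SE 0.16) through ND, with an adjusted p of 0.510 in the normal test. With the error of ND, which cancels in such a difference, taken off, that adjusted p was 0.0465. The difference between the repopulation effects in diabetic and non-diabetic retina was -0.11 (SE 0.14), with an adjusted p of 1.00.

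Both groups in which the ligand was called lower against ND, D6 and D8 depleted, share ND's range of library numbers, and so do D10 repopulated and ND repopulated, in which it was not called. Computed from the authors' deposited tables, the ligand was 0.38 (SE 0.16) higher in D8 than in D6, with an adjusted p of 0.57, and 0.33 (SE 0.16) higher in D10 than in D6, with an adjusted p of 0.655. In those comparisons through ND 0.0229% and 0.0115% of all genes passed. Adding the variances keeps the error of ND, which cancels in such a difference, and with the ND part taken off the adjusted p values were 0.00592 and 0.0254. Between D10 and D8 the ligand differed by -0.05 (SE 0.16). In that comparison 0.00% of 17317 genes passed, with 219 at an unadjusted p under 0.05, and 87 passed with the ND part taken off.

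Ordered by level, Cx3cl1 ran from ND repopulated through ND, D8, D10, D10 repopulated and D8 depleted down to D6, and none of the 6 steps between neighbours was called. The authors' deposited means were 18.5 in D8, 17.7 in D10, 20.5 in ND repopulated and 19.7 in ND.

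Markers of several retinal cell types, among them neurons that can make the ligand, were called in the same groups. Of all genes, 14.1% were called higher and 9.31% lower in D6 against ND, and 5.85% and 4.90% in D8 depleted against D8. Beside these shares, counts of 1 or 2 per list are not read as a result about the cell type. Of 10 retinal ganglion cell genes, 4 were called lower and 1 higher in D6 against ND, with Nefl, Nefm and Nefh, the neurofilament genes, at -0.43, -0.39 and -0.38 and Slc17a6, a vesicular glutamate transporter, at -0.47 in the authors' deposited table. In D8 depleted against D8, Slc17a6 at -0.76, Pou4f1 at -0.64 and Nefl at -0.47 were the 3 called, all lower, in the authors' deposited table. Of 10 amacrine and horizontal cell genes, 4 were called lower there, Tfap2b at -0.46, Gad2 at -0.51, Prox1 at -0.40 and Gad1 at -0.38 in the authors' deposited table. In D6 against ND 0 of the 10 amacrine and horizontal cell genes were called, with 0 at an unadjusted p under 0.05. Of 10 endothelial genes, Kdr at -0.64 and Tek at -1.37, receptors for VEGF and angiopoietin, were called lower in D8 depleted against D8 in the authors' deposited table. Of 9 rod and cone genes, 3 were called lower in D8 depleted against D8 and all 9 were below 0, and in D6 against ND 2 were called higher and 2 lower. Of 9 Muller glia and astrocyte genes, 2 were called lower in D8 depleted against D8, and 1 higher and 2 lower in D6 against ND. The part of these cells in the ligand's level was not tested.

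The genes that induce fractalkine in cultured endothelium, and the adhesion genes that the same signals switch on, behaved unlike the ligand. Of 10 such genes, 9 were called higher in D6, in D8, in D10 and in D10 repopulated against ND, and 7 in D8 depleted, with Ifng, whose larger group mean was at most 0.0204 in the authors' deposited tables, not called in any. Tnf had 6.32 in D6, 5.60 in D8, 6.70 in D10 repopulated and 6.96 in D10 against ND in the authors' deposited tables. Icam1, an adhesion receptor for leukocytes, had 4.82 in D6, 4.31 in D8, 5.36 in D10 repopulated and 5.26 in D10 in the authors' deposited tables. Vcam1, another, had 1.82 in D6, 2.00 in D8, 2.36 in D10 repopulated and 3.09 in D10, and was called lower, at -0.73, in D10 repopulated against D10 in the authors' deposited table. In D8 depleted against D8, 0 of the 9 tested were called, with 2 at an unadjusted p under 0.05, and in ND repopulated against ND 0 of 9, with 1.

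The 2 chemokine genes that flank Cx3cl1 on chromosome 8 did not follow it. Ccl17, on its one side, encodes a ligand of CCR4 and had 3.17 in D6, 3.75 in D8 depleted and 2.44 in D10 repopulated against ND, and 2.26 in D8 depleted against D8, all called in the authors' deposited tables. Ccl22, on its other side, encodes another CCR4 ligand and was called at 3.50 in D10 repopulated and 3.97 in D10 against ND in the authors' deposited tables. Neither was called lower in any table.

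**Figure D3:**
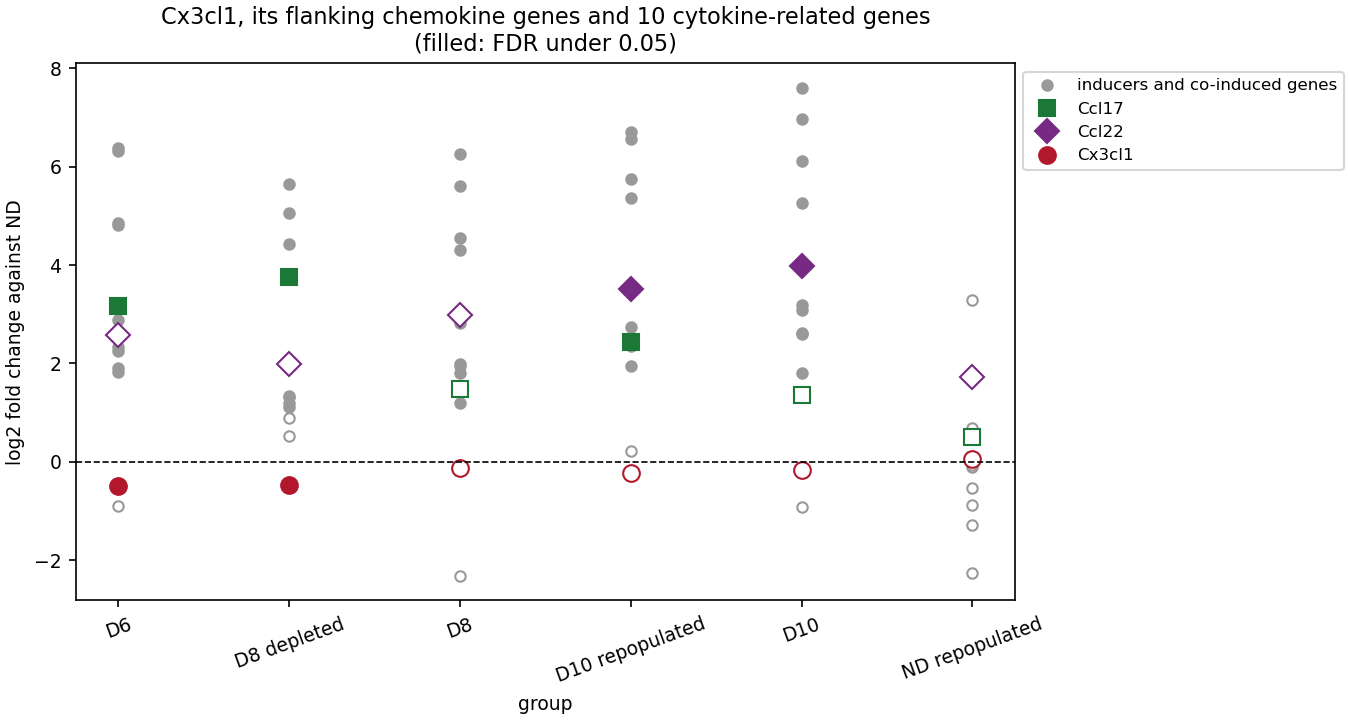
Log2 fold change against ND (y axis) of Cx3cl1 (red circles), its flanking genes Ccl17 (green squares) and Ccl22 (purple diamonds) and 10 inducers and co-induced genes (grey circles) in 6 groups (x axis). Points are the authors' deposited values, filled where the FDR was under 0.05. Cx3cl1 lies between -0.50 and 0.06 while Tnf reaches 6.96 in D10.

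Adam10, the constitutive sheddase, was called in none of the 8 tables. Its lowest value in the authors' deposited tables was -0.23 (SE 0.10) in D8 depleted against ND, with an unadjusted p of 0.0234 and an FDR of 0.0727. Against D8 the depleted retinas had -0.18 (SE 0.12), with a 95% interval of -0.43 to 0.06, in the authors' deposited table. The remaining values in the authors' deposited tables lay between -0.15 in D6 and 0.04 in ND repopulated, both against ND. The authors' deposited means were 8.23 in D8, 8.48 in D10, 8.59 in ND repopulated and 8.38 in ND.

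Adam17, the inducible sheddase, was not called either, and its largest values pointed the other way. The authors' deposited table gave 0.32 (SE 0.15) for D8 depleted against D8, with an unadjusted p of 0.0284 and an FDR of 0.141, and 0.21 (SE 0.11) for D8 depleted against ND, with an FDR of 0.148. In D10 repopulated against D10 it had -0.04 (SE 0.13), with a 95% interval of -0.30 to 0.23, in the authors' deposited table. The authors' deposited means were 4.91 in D6, 5.85 in D8 depleted, 4.63 in D10 and 4.91 in ND. Adam17 overlaps Iah1, a gene of the other strand, and no source says whether the counting used strand. Iah1 was called in none of the 8 tables. Against ND it had -0.50 in D6 (FDR 0.0529), -0.40 in D8 depleted and -0.44 in D10 repopulated in the authors' deposited tables. The part of Iah1 reads in the Adam17 values was not tested. For both sheddases none of the 6 steps between neighbouring groups was called. The 95% intervals of the 16 sheddase values reach from -0.43 to 0.61 on the log2 scale.

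Among 6 genes of ADAM17 maturation and inhibition, Rhbdf1 was called in 5 of the 8 tables. Rhbdf1, which encodes the iRhom1 escort of ADAM17, had 1.43 in D6, 1.23 in D8 depleted, 0.84 in D10 repopulated and 0.87 in D10 against ND, and 0.69 in D8 depleted against D8, all called in the authors' deposited tables. Its D8 value of 0.53 against ND, in the authors' deposited table, was not called. Rhbdf2, the iRhom2 escort of myeloid cells, was called in D6, at 0.64, as was Furin, a convertase that removes the ADAM prodomain, at 0.24 in the authors' deposited table, and neither was called in another table. Frmd8, which stabilises iRhoms, Pcsk7, another convertase, and Timp3, an ADAM17 inhibitor, were called in none of the 8 tables, with values between -0.18 and 0.37 in the authors' deposited tables. Of the 6 genes of this list, 3 rose in D6, 1 each in D10, D8 depleted and D10 repopulated against ND and 1 in D8 depleted against D8, and 0 fell. Of all genes, 14.1% were called higher in D6, 5.59% in D10, 15.5% in D8 depleted and 7.49% in D10 repopulated against ND. The share was 5.85% in D8 depleted against D8. Counts of 1 of 6 are therefore not read as a result about the list.

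The tetraspanins that direct ADAM10 to its substrates were nearly level. Of the 6 TspanC8 genes, Tspan14 alone was called, lower at -0.51 in D6 and -0.58 in D8 depleted against ND in the authors' deposited tables. Tspan5, Tspan15, Tspan17 and Tspan33 lay between -0.23 and 0.17 in the authors' deposited tables, and Tspan10, a gene of pigment epithelium, ranged wider, down to -1.10 in D8, without a call. Timp1, which encodes an inhibitor of ADAM10 and of matrix metalloproteinases, rose in every diabetic group against ND, with 3.96 in D6, 3.13 in D8 depleted, 3.39 in D8, 3.94 in D10 repopulated and 4.59 in D10 in the authors' deposited tables. Sfrp1, a secreted inhibitor of ADAM10 and of Wnt signals, was lower at -2.54 in D8 depleted and -2.72 in D8 against ND in the authors' deposited tables. Lens genes were lower in the same groups, as given below, and the part of lens tissue in Sfrp1 was not tested.

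**Figure D4:**
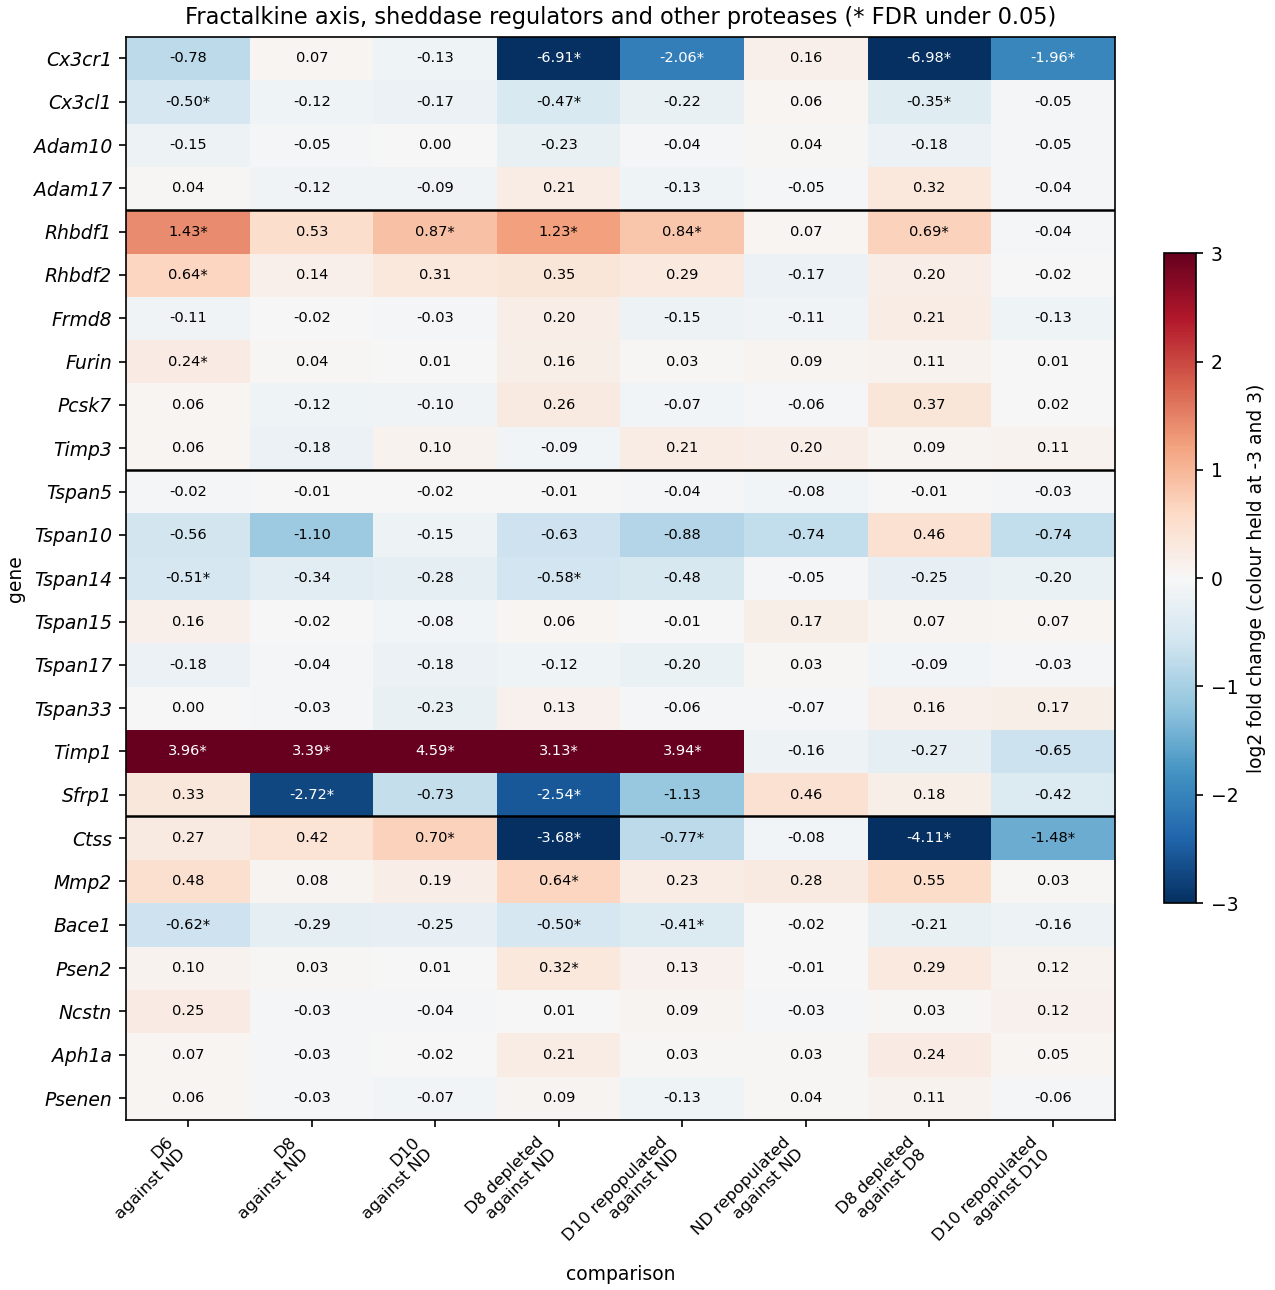
Log2 fold changes in the authors' deposited tables for the 4 members, 6 genes of ADAM17 maturation, 8 ADAM10 partners and inhibitors and 7 other proteases (rows) in the 8 comparisons (columns). Red is higher and blue lower in the first-named group, colours stop at 3 and -3, and a star marks an FDR under 0.05. Timp1 is red in all 5 diabetic groups against ND, up to 4.59, Rhbdf1 reaches 1.43 in D6, and Ctss follows the receptor with -4.11 in D8 depleted against D8.

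Other proteases able to cut fractalkine or its membrane stub were read as a list of 7. Ctss, encoding cathepsin S, the microglial enzyme that releases fractalkine from neurons in the spinal cord, had -4.11 in D8 depleted against D8 and -1.48 in D10 repopulated against D10, both called in the authors' deposited table. Against ND it was at 0.70 in D10, -3.68 in D8 depleted and -0.77 in D10 repopulated in the authors' deposited tables, all called. It therefore fell and came back in part, as the receptor did. Bace1, the beta-secretase gene, was lower at -0.62 in D6, -0.50 in D8 depleted and -0.41 in D10 repopulated against ND in the authors' deposited tables. Psen2, a subunit of gamma-secretase, had 0.32 and Mmp2 0.64 in D8 depleted against ND, both called in the authors' deposited table.

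Of 10 other ADAM genes, Adam8 was called in 4 of the 8 tables and Adam28 in 3. Adam8, an ADAM of activated leukocytes, was called lower in 4 of the 5 diabetic groups, with -0.78 in D6, -0.90 in D8 depleted, -1.20 in D10 repopulated and -0.67 in D10 against ND in the authors' deposited tables. Adam28, an ADAM of lymphoid cells, had 3.89 in D8 depleted and 3.45 in D10 repopulated against ND and 2.57 in D8 depleted against D8, all called in the authors' deposited tables, from a larger group mean no higher than 0.111. None of the 10 was called in D10 repopulated against D10 by the authors' test, with 1 at an unadjusted p under 0.05.

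Among 18 other substrates of ADAM10 and ADAM17, the calls ran one way in some comparisons and both ways in others. Against ND, 4 rose and 5 fell in D8 depleted, and 6 rose and 2 fell in D10 repopulated. In D6 against ND 6 rose and 0 fell, in D8 3 rose and in D10 7 rose, with 0 lower in either. The shares of all genes called higher were 14.1% in D6, 2.33% in D8 and 5.59% in D10. In D8 depleted against D8, given below, 4.90% of all genes were called lower. Tnfrsf1a, a TNF receptor that ADAM17 sheds, had 1.23 in D6, 1.15 in D8 and 1.84 in D10 against ND in the authors' deposited tables. Cd44, the hyaluronan receptor, had 1.43 in D6 and 2.06 in D10, and Il6ra, the interleukin-6 receptor chain, 1.01 in D6 and 1.21 in D10 in the authors' deposited tables. Mertk, a phagocytic receptor cut by ADAM17, was at 0.91 in D8 depleted and 1.07 in D10 repopulated against ND in the authors' deposited tables. In D8 depleted against D8 4 of 18 fell and 0 rose, Csf1r at -3.15, Trem2 at -3.60, App at -0.46 and Cdh2 at -0.42 in the authors' deposited table. The first pair are microglia genes and App, the amyloid precursor, and Cdh2, N-cadherin, are made by neurons and glia. Vcam1 was the 1 of 18 called in D10 repopulated against D10.

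Other chemokines and their receptors set the scale for the pair. Ccl2, the monocyte attractant, had 7.73 in D6, 5.82 in D8 depleted, 6.91 in D8, 8.48 in D10 repopulated and 8.15 in D10 against ND in the authors' deposited tables. Cxcl12, which like Cx3cl1 is made constitutively, was lower in all 5 diabetic groups, at -1.36 in D6, -1.67 in D8 depleted, -0.81 in D8, -1.55 in D10 repopulated and -1.19 in D10 in the authors' deposited tables, all called. Ccl12, another monocyte-attracting ligand of this list of 10, had -7.35 in D8 depleted against D8 and -1.86 in D10 repopulated against D10 in the authors' deposited tables, both called, as Cx3cr1 was in both comparisons.

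Markers of tissue around the retina also differed between groups. Of 9 lens genes, 9 were called lower in D8 depleted against ND and 7 in D8 against ND, with medians of -8.91 and -5.54, and 5 of 8 tested were lower in D8 depleted against D8. Of 6 blood genes, the 4 globin genes were called higher in D10 repopulated against D10, with Hbb-bs at 3.84 in the authors' deposited table, and 4 of 5 tested in D8 depleted against D8. Against ND, 5 of the 6 were called lower in D10 and 4 in D8, with medians of -3.28 and -3.53. In D6 1 was called lower, with a median of -2.00, and in D8 depleted 0 were called, with a median of -1.35. Of 8 pigment epithelium genes, 4 were called higher in D8 depleted against D8, and 3 higher and 1 lower in D10 repopulated against D10. In D10 repopulated against ND, 0 of 9 lens genes and 0 of 6 blood genes were called by the authors' test, with 0 and 0 at an unadjusted p under 0.05. In the same comparison 2 of 8 pigment epithelium genes were called higher, with a median of 0.97 over the list and 5 of 8 at an unadjusted p under 0.05. The part of these tissues in the members' values was not tested.

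Finally, the genes whose log2 values over the 7 groups ran most like each member's were listed by Pearson's r, with ND at 0, among 11372 or 11373 genes with a larger group mean of at least 1 in every table. The 7 points share ND and its error, and with so few points high values are common, so r is a description. For Cx3cr1 the 8 genes included Csf1r (r = 0.998), Marcks, Laptm5, Scoc, Tmed10, Rab9b and Ago3. The root mean square differences of these 7 from the receptor were 1.57 to 2.82 on the log2 scale, so that their values were not of its size. The receptor's value of -6.91 in D8 depleted lies far from its other values, and that group weighs most in r. By smallest difference C1qa came first, at 1.06, followed by C1qb and C1qc.

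For Cx3cl1 the list was Extl3 (r = 0.998, root mean square difference 0.0415), Hsdl2, Naa60, Zdhhc9, Slc2a3, Minpp1, Nono and Sphk2. For Adam10 it was Tex261 (r = 0.989, difference 0.02), Ccdc88a, Rgs4, Hs2st1, Bri3bp, Maob, Ppargc1a and Ube2z. For Adam17 it was Pcsk7 (r = 0.984, difference 0.03), Dcaf11, Chmp7, Zkscan6, Acad8, Dpp7, Trappc9 and Dhx57. None of the 4 lists held another member, although Cx3cr1 could not enter one, since its means lie under the minimum of 1.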

How the data were processed

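Poly(A)-selected, strand-marked RNA-seq libraries of retina were read as 100-base pairs, per the labels' protocols. The submitters' processing notes name bcl2fastq and the GRCm39 build; the aligner, the counting and the statistical test are not stated in any label or header. In all, the authors deposited 8 comparison tables of 25655 genes, each with the larger of 2 group means (a signal in a unit that is not stated), a log2 fold change, a linear ratio (fold change) and p-values with FDR. The deposited FDR equals a Benjamini-Hochberg adjustment to within 0.000489. The table of D10 repopulated and D10 ran D10 over D10 repopulated, so its sign was turned. No column of per-sample values is in use, and depth is unknown.

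The standard error of a log2 value is its size over the normal quantile of the deposited p, and 95% intervals are normal. Of 21 pairs of groups, 8 have a table. The other 13 were computed as differences of 2 log2 values against ND with variances added, tested against a normal distribution and adjusted over all genes with both values. The test through ND was tried on simulated data for D10 repopulated against D8 depleted alone, and the differences between tables were not simulated. Each simulated gene had the same known error, unlike genes of low level such as Cx3cr1. Group levels come from the deposited means, whose ratios lay within 0.0413 of the modelled log2 values. Counts of 21 gene lists carry no set test.

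The members and lists were chosen with earlier results of these data known, and no agreement with them is independent support. The genes named are the members, up to 4 per list with the smallest p in D8 depleted against D8, up to 4 per list with the smallest p elsewhere, any gene of the escort, tetraspanin and substrate lists, the neighbours of the members, and 8 genes per member by Pearson's r. The neighbours, a few low-level genes (Ccr2, Ifng, Fcrls and Gpr34) and the tests between tables were added after values were seen. A few genes of the lists are not reported here. Promoters came from RefSeq, and all 4 members matched. Alternatives were FDR thresholds of 0.01 and 0.1, a minimum absolute log2 of 1, leaving out the lowest 40 percent of genes by level or genes with predicted names, and centring on the median. Python 3.11.15, pandas 2.3.3, numpy 2.4.6, scipy 1.17.1, statsmodels 0.14.6 and matplotlib 3.10.9 were used.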

Additional observations from a re-analysis of the deposited data

Results flagged for a closer look

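The Cx3cr1 repopulation effect differed between diabetic and non-diabetic retina by the test of the difference itself. The log2 value was -1.96 for D10 repopulated against D10 and 0.16 for ND repopulated against ND, in the authors' deposited tables, a difference of -2.12 (SE 0.45, 95% interval -3.00 to -1.24, adjusted p 0.00273 in a normal test over 15400 genes). The D10 libraries carry PBS and come from another range of library numbers than D10 repopulated, and ND carries no PBS. The deposited log2 of D10 repopulated against ND, which share 1 range but differ in diabetes and depletion, was -2.06. The part of library range and of PBS in the difference was not tested. The test was chosen after the values were seen.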

How the results depend on the processing

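Of 260 values of the members under the alternatives, 246 were counted as the same, 6 lost a call, 8 gained one and 0 reversed. Most alternatives left the log2 value as it was, so its direction could not reverse there. A gene that was not called could not gain a call at a threshold of 0.01 or with an absolute log2 of 1. These counts are therefore no measure of robustness. Cx3cr1 in D6 against ND (-0.78) and Adam10 in D8 depleted against ND (-0.23) were called at an FDR threshold of 0.1. Cx3cl1 lost its calls in D6 against ND (-0.50), D8 depleted against ND (-0.47) and D8 depleted against D8 (-0.35) when an absolute log2 of 1 was asked, and the last also at a threshold of 0.01. Computed through ND, Cx3cl1 in D8 depleted against D8 was -0.35 (adjusted p 0.352) and Cx3cr1 in D10 repopulated against D10 was -1.93 (adjusted p 0.135), neither called, since that route adds the error of ND. With ND variance taken off, further calls were Cx3cl1 in D8 against D6 (0.38), D10 against D6 (0.33), D10 repopulated against ND repopulated (-0.28) and D8 depleted against D10 (-0.30), and Cx3cr1 in D10 repopulated against D6 (-1.28) and D6 against ND repopulated (-0.94). Leaving out the lowest 40 percent of genes by level removed Cx3cr1 by construction, so that 1 member stayed called in D8 depleted against ND, 1 in D8 depleted against D8, and 0 in D10 repopulated against ND and D10. Members called in D6 against ND were 2 at 0.1 and 0 with an absolute log2 of 1, and 1 in D8 depleted against ND and against D8 with that absolute log2.

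Counts over all genes moved by more than 1.5 times, by construction of each limit. At a threshold of 0.01 they were 2401 of 4184 in D6, 310 of 509 in D8, 3354 of 5152 in D8 depleted and 1190 of 2044 in D10 repopulated against ND, 739 of 1826 in D8 depleted against D8 and 38 of 75 in D10 repopulated against D10, the last being 144 at 0.1. With an absolute log2 of 1 they were 978, 338, 717 (D10, of 1212), 1374, 814 and 13 (ND repopulated, of 24) against ND, 551 in D8 depleted against D8 and 45 in D10 repopulated against D10. Without the lowest 40 percent by level they were 282 in D8, 634 in D10 and 1321 in D10 repopulated against ND. Genes of the lists called were 38 of 58 in D6 at 0.01 and 34 with an absolute log2 of 1, 61 of 99 in D8 depleted against ND with that absolute log2, and, without the lowest 40 percent, 30 of 54 in D10 and 28 of 54 in D10 repopulated against ND and 39 of 64 in D8 depleted against D8. Ranking by smallest difference kept 2, 2, 1 and 5 of the 8 genes most like Cx3cr1, Cx3cl1, Adam10 and Adam17, and a larger group mean of at least 5 kept 4, 7, 4 and 6, with Csf1r and Laptm5 no longer among those of Cx3cr1. No paired analysis was possible because the tables hold no value per library and the labels give no shared replicate numbers; for the same reason no library could be left out.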
